A study of Mus musculus with 10 samples.

Results

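Transcripts of 7 genes known from signalling between nerve cells were followed across 5 lineages sorted from the mesenchyme of adult mouse lung: Penk, Lsamp, Adcyap1r1, Gria1, Gria3, Clstn2 and Fam163b. They were picked from 14854 listed genes because their mean levels differed between the lineages. Their levels, differences and overlaps between libraries are therefore given below as a description, with no test. How many of all genes separate the lineages as far was not counted. Tests were kept for other genes of the same pathways. All 7 were found by Ensembl identifier, and all 7 were among the 14177 genes left by a filter on low values (6 or more on the log2 scale in 2 or more libraries).

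RNA-seq was done on 10 libraries, 2 from each lineage. The Wnt2 group came from adult mice with Wnt2CreERT2 and R26REFYP. The remaining lineages were sorted from adult mice that all carried Axin2CreERT2, tdT and PdgfraEGFP. They are Axin2:Pdgfra, Axin2, Pdgfra and Negative, named in the sample labels after the lineage sorted. CreERT2 is a recombinase that tamoxifen switches on, so tdT and the R26REFYP reporter mark cells in which the Axin2 or Wnt2 driver was active at induction, and their descendants. EGFP follows Pdgfra itself. The labels do not state when tamoxifen was given or whether libraries came from separate animals, and mouse line and lineage cannot be told apart for the Wnt2 group. P-values therefore measure the spread between these libraries, which may be technical in part. Xist, which female cells transcribe from the inactive X chromosome, was at 17.04 and 7.81 in the Wnt2 libraries and at 17.72 and 8.57 in the Negative libraries, so that the libraries of these pairs also differed in sex.

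Penk encodes proenkephalin, the precursor of the opioid peptides known as enkephalins. Adcyap1r1 encodes PAC1, a receptor for the neuropeptide PACAP that couples to cyclic AMP. Gria1 and Gria3 encode subunits of AMPA receptors, the ion channels that carry fast excitatory signals of glutamate. Lsamp is an IgLON adhesion protein attached to the outer surface of neurons, and Clstn2, calsyntenin-2, is a transmembrane adhesion protein of synapses. Fam163b is a little-studied gene that is transcribed in brain.

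Levels are log2 signals as deposited. The lowest value in a library lay between 1 and 2.67 and was shared by 2.09% to 18.37% of genes, most in Negative library 2 (18.37%) and Axin2:Pdgfra library 2 (15%). A gene with that value is called listed at the lowest value, and no difference is given from a lineage whose 2 libraries both have it. The signal is not known to be scaled by gene length, so the level of a single gene is compared only with its own level in other libraries. The summed signals of gene lists add different genes without further scaling, so genes with a high signal weigh most in them. A list of 8 mesenchyme and fibroblast genes (Col1a1, Col1a2, Col3a1, Dcn, Lum, Pdgfra, Pdgfrb and Vim) had a summed signal of 16.3 to 17.95 (log2) over the 10 libraries, lowest in the Negative pair (16.3 and 16.44). The Negative libraries were also the highest in epithelial and erythroid genes. The log2 summed signal of 12 epithelial genes was 14.52 to 17.13 in the other lineages, against 17.67 and 17.81 in Negative cells. That of 5 erythroid genes was 6.95 to 11.31 in the other lineages, against 16.5 and 16.02 in Negative cells. Their part in the differences from Negative cells given below was not tested. The log2 summed signal of 10 endothelial genes was 16.23 and 16.25 in Pdgfra cells, against 14.39 and 14.59 in Axin2:Pdgfra cells. That of the epithelial genes was 17.13 and 16.54 in Pdgfra cells, against 15.39 and 15.46 in Axin2:Pdgfra cells. The part of these genes in the differences between those lineages was not tested. These were bulk libraries, in which fewer cells of a type and less RNA per cell cannot be told apart.

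The peptide precursor Penk (ENSMUSG00000045573) was high in both lineages of the Axin2CreERT2 line that carried the Pdgfra label and near or at the lowest value elsewhere. Its log2 signal was 3.23 and 1.95 in Wnt2, 10.69 and 10.03 in Axin2:Pdgfra, 1.55 and 1.75 in Axin2, 7.86 and 9.3 in Pdgfra, and 1.79 and 2.67 in Negative cells. Both Axin2 and both Negative libraries were listed at the lowest value. The means were 10.36 ± 0.47 in Axin2:Pdgfra and 8.58 ± 1.02 in Pdgfra (SD, n = 2 in each), a difference of 1.78 with no overlap between the 2 pairs of libraries. Without Pdgfra library 1 it was 1.06. The Wnt2 libraries, at 3.23 and 1.95, lay above their own lowest value of 1, and Wnt2 cells were lower than Axin2:Pdgfra cells (difference -7.77) and than Pdgfra cells (-5.99).

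Lsamp (ENSMUSG00000061080) had the same distribution over the lineages. Its log2 signal was 1 and 1.75 in Wnt2, 8.68 and 9.64 in Axin2:Pdgfra, 1.55 and 1.75 in Axin2, 7.86 and 8.32 in Pdgfra, and 1.79 and 2.67 in Negative cells. Wnt2 library 1, both Axin2 libraries and both Negative libraries were listed at the lowest value. The mean was 9.16 ± 0.68 in Axin2:Pdgfra and 8.09 ± 0.32 in Pdgfra (SD, n = 2 in each), which differ by 1.07 with no overlap, or by 0.59 without Axin2:Pdgfra library 2. The difference was -7.79 in Wnt2 minus Axin2:Pdgfra cells and -6.71 in Wnt2 minus Pdgfra cells. These became -6.49 and -5.42 when every library was given the common lowest value of 2.67.

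The Pdgfra transcript did not separate the lineages in the way that Penk and Lsamp did. Pdgfra, the receptor gene that drives the EGFP label, was at 16.05 and 16.25 in Wnt2, 14.91 and 15.21 in Axin2:Pdgfra, 13.49 and 13 in Axin2, 14.64 and 14.92 in Pdgfra, and 12 and 13.34 in Negative cells. Within the Axin2CreERT2 line it did separate them, at 14.64 or more in both lineages with the Pdgfra label and 13.49 or less in both without it. It was highest in the Wnt2 libraries, from the other mouse line, where Penk and Lsamp were near the lowest value.

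Few genes met exact cutoffs set on this distribution. Of the 14854 genes, 228 had the lowest value in all 4 Axin2 and Negative libraries, and 8 of these reached 6 or more in all 4 Axin2:Pdgfra and Pdgfra libraries. With both Wnt2 libraries also under 6 there were 5, namely Penk, Lsamp, Sox9, Cacna2d3 and Gm15675. Sox9 is a transcription factor of cartilage and lung epithelium, and Cacna2d3 is an auxiliary subunit of voltage-gated calcium channels. These cutoffs were chosen after the values had been seen, so Penk and Lsamp meet them by choice. They also leave out genes just above the lowest value that are close in profile. Lgr5 was at 3.96 in Axin2 library 1 and 3.36 in Negative library 0, and Lrrc15 was at 3.13 in Axin2 library 1.

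Profiles were also compared over the 10 libraries, after subtraction of each gene's own mean, by the root-mean-square (RMS) difference in log2 units. The gene closest to Penk was Lsamp (0.82), followed by Lgr5 (1.02), a receptor for R-spondins, and Sox9 (1.2). The genes closest to Lsamp were Sox9 (0.79), Lrrc15 (0.8), a membrane protein of fibroblasts, and Penk (0.82). Lgr5 was at 4.07 and 1 in Wnt2, 11.52 and 9.96 in Axin2:Pdgfra, 3.96 and 1.75 in Axin2, 9.8 and 9.09 in Pdgfra, and 3.36 and 2.67 in Negative cells. All of these genes share the same libraries and the same lowest values, which brings genes with many lowest values close to each other.

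**Figure D1:**
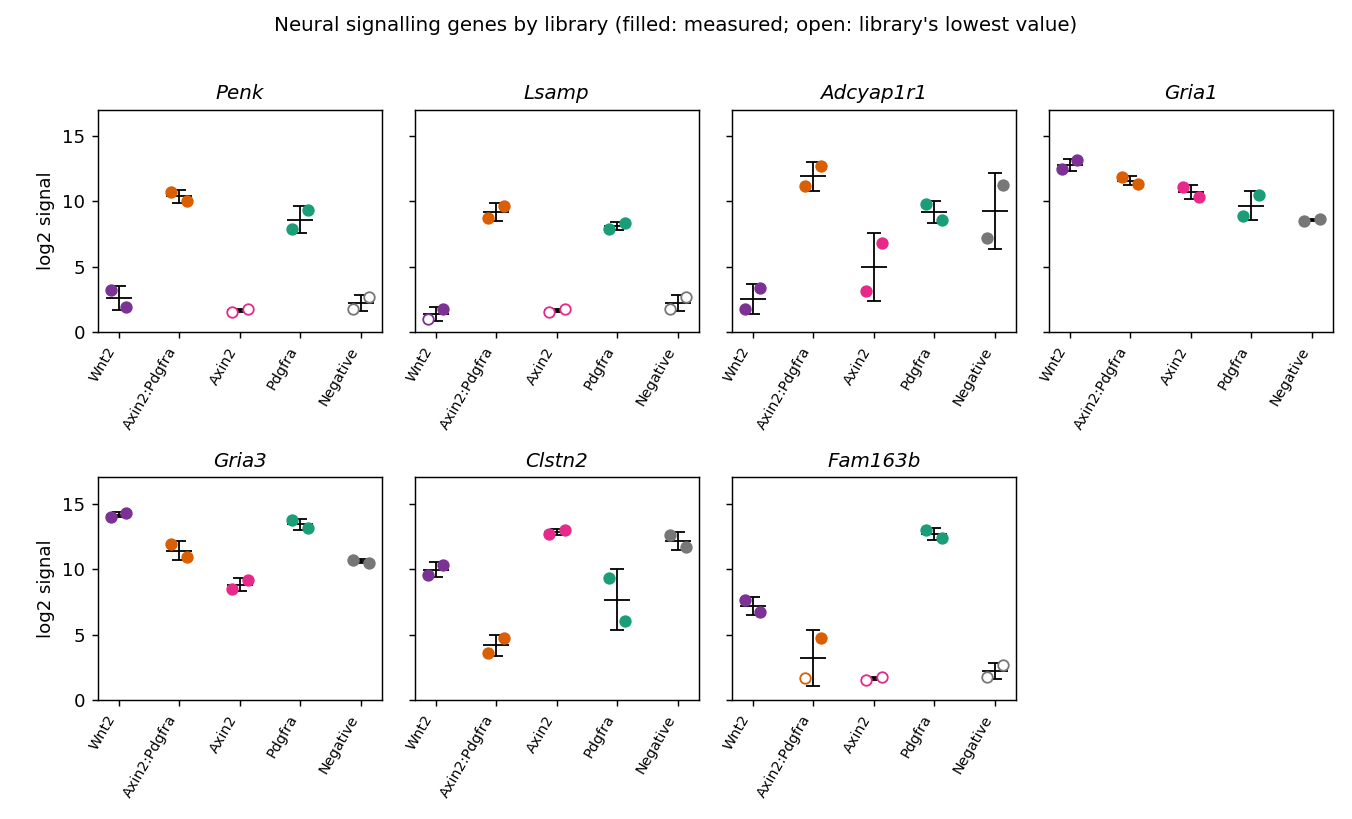
Log2 signal of the 7 genes (one panel each) in Wnt2, Axin2:Pdgfra, Axin2, Pdgfra and Negative cells. Points are libraries (open where the gene is listed at the lowest value of the library), and bars are the mean ± SD of 2 libraries; Penk and Lsamp lie above 7.8 in the 4 Axin2:Pdgfra and Pdgfra libraries and at 3.23 or less in the other 6.

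The receptor Adcyap1r1 (ENSMUSG00000029778) was highest in Axin2:Pdgfra cells and, unlike Penk and Lsamp, was also measured in Negative cells. Its log2 signal was 1.75 and 3.35 in Wnt2, 11.12 and 12.66 in Axin2:Pdgfra, 3.13 and 6.8 in Axin2, 9.78 and 8.55 in Pdgfra, and 7.16 and 11.27 in Negative cells. The means were 2.55 ± 1.13 in Wnt2, 11.89 ± 1.09 in Axin2:Pdgfra, 4.96 ± 2.59 in Axin2, 9.17 ± 0.87 in Pdgfra and 9.22 ± 2.9 in Negative cells (SD, n = 2 in each). Axin2:Pdgfra cells were higher than Axin2 cells by 6.93 and higher than Pdgfra cells by 2.72, in both libraries each time.

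The Negative pair limits what can be said of Adcyap1r1. Its 2 libraries differed by 4.11, against a median of 1.12 over all genes kept, and Negative library 2 overlapped the Axin2:Pdgfra range. Pdgfra and Negative cells differed by -0.05, well inside that spread. Pdgfra minus Negative changed sign with the Negative library left out, at 2.0 without library 2 and -2.1 without library 0. Axin2 cells were lower than Negative cells (difference -4.25), by less without Negative library 2 (-2.2) or Axin2 library 1 (-2.42). Wnt2 and Axin2 cells, which had the lowest means, overlapped.

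No other gene followed Adcyap1r1 as closely as Lsamp followed Penk. The closest was Pcsk6 (RMS difference 1.78), a proprotein convertase, then Adh7 (1.9), an alcohol dehydrogenase that also acts on retinol, and Gm15890 (1.99). Pcsk6 was at 1.75 and 2.64 in Wnt2, 10.84 and 8.78 in Axin2:Pdgfra, 6.3 and 7.85 in Axin2, 8.05 and 9.42 in Pdgfra, and 6.47 and 9.87 in Negative cells. It too was low in both Wnt2 libraries and higher in Negative library 2 than in Negative library 0.

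Both AMPA receptor subunits were highest in Wnt2 cells, but the order of the other lineages differed between them. The log2 signal of Gria1 (ENSMUSG00000020524) was 12.44 and 13.11 in Wnt2, 11.81 and 11.34 in Axin2:Pdgfra, 11.04 and 10.31 in Axin2, 8.87 and 10.45 in Pdgfra, and 8.48 and 8.63 in Negative cells. The means were 12.78 ± 0.47 in Wnt2, 11.57 ± 0.33 in Axin2:Pdgfra, 10.68 ± 0.52 in Axin2, 9.66 ± 1.12 in Pdgfra and 8.55 ± 0.1 in Negative cells (SD, n = 2 in each). Neighbours in this order did not overlap, except that the Axin2 and Pdgfra libraries did. Gria1 was thus higher in both lineages with the Axin2 label than in their partners without it, by 1.92 in Axin2:Pdgfra minus Pdgfra (1.12 without Pdgfra library 1) and by 2.12 in Axin2 minus Negative. It was also higher with the Pdgfra label, by 0.9 in Axin2:Pdgfra minus Axin2 (0.53 without Axin2 library 2) and by 1.1 in Pdgfra minus Negative (1.9 without Pdgfra library 1 and 0.31 without library 2).

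Gria3 (ENSMUSG00000001986) was higher with the Pdgfra label, as Gria1 was, and lower with the Axin2 label. Its log2 signal was 14.02 and 14.27 in Wnt2, 11.93 and 10.9 in Axin2:Pdgfra, 8.46 and 9.19 in Axin2, 13.72 and 13.12 in Pdgfra, and 10.72 and 10.49 in Negative cells. The means were 14.15 ± 0.18 in Wnt2, 11.41 ± 0.73 in Axin2:Pdgfra, 8.82 ± 0.52 in Axin2, 13.42 ± 0.42 in Pdgfra and 10.6 ± 0.16 in Negative cells (SD, n = 2 in each). No 2 lineages overlapped. The difference was 2.59 in Axin2:Pdgfra minus Axin2 cells and 2.82 in Pdgfra minus Negative cells. In Axin2:Pdgfra minus Pdgfra cells it was -2.01, and in Axin2 minus Negative cells -1.78.

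The 2 subunits therefore differed in the sign of their difference with the Axin2 label, positive for Gria1 and negative for Gria3 in both pairs of lineages. Gria3 is X-linked, and its libraries were 0.26 apart in Wnt2 and 0.23 apart in Negative cells, the pairs that differed in Xist. The part of sex in its level was not tested.

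The genes closest in profile to Gria1 were Kif2a (RMS difference 0.66), a kinesin that takes microtubules apart, Lpgat1 (0.68), an acyltransferase of phospholipid metabolism, and Ogn (0.7), a small leucine-rich proteoglycan. Those closest to Gria3 were Fat3 (0.71), a protocadherin, Sned1 (0.84), an extracellular matrix protein, and Slc16a10 (0.84), a transporter of aromatic amino acids. Fat3 was at 15.1 and 14.73 in Wnt2, 13.16 and 13.66 in Axin2:Pdgfra, 10.18 and 11.27 in Axin2, 14.11 and 14.05 in Pdgfra, and 11.39 and 11.57 in Negative cells. Its order of lineages was that of Gria3.

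The adhesion gene Clstn2 (ENSMUSG00000032452) had the opposite distribution to Lsamp, high where Lsamp was listed at the lowest value. Its log2 signal was 9.54 and 10.34 in Wnt2, 3.62 and 4.74 in Axin2:Pdgfra, 12.67 and 12.98 in Axin2, 9.29 and 6.01 in Pdgfra, and 12.61 and 11.68 in Negative cells. The means were 9.94 ± 0.57 in Wnt2, 4.18 ± 0.79 in Axin2:Pdgfra, 12.83 ± 0.21 in Axin2, 7.65 ± 2.32 in Pdgfra and 12.15 ± 0.66 in Negative cells (SD, n = 2 in each). No 2 lineages overlapped, although the Axin2 and Negative means were 0.68 apart and the nearest libraries of that pair were 12.67 and 12.61. The difference was -8.64 in Axin2:Pdgfra minus Axin2, -3.47 in Axin2:Pdgfra minus Pdgfra (-1.83 without Pdgfra library 1) and -4.5 in Pdgfra minus Negative cells (-2.86 without Pdgfra library 2). Axin2 minus Negative was 0.21 without Negative library 2 and 1.14 without Negative library 0. In Axin2:Pdgfra library 2 the value of 4.74 is the next above the lowest. The Pdgfra libraries were 3.28 apart, against a median of 0.89 over all genes kept.

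Promoter sequences from RefSeq (build GRCm38.p6, 250 bases before to 50 after a start site) were matched by symbol for 4 of the 7 genes: Lsamp, with 2 start sites, Adcyap1r1, Clstn2 and Fam163b. The files name build mm9, so these positions were not set against any coordinate of the files. They were searched on both strands for TGACGTCA, the cyclic AMP response element, and TGACTCA, the AP-1 site of Fos and Jun, because PAC1 acts through cyclic AMP and because genes of the Fos family are considered below; neither motif contains the other. TGACGTCA was in the Clstn2 promoter (85 bases before the start site) and TGACTCA was in none of the 5. Of 32851 promoters of the same length, 1.79% held TGACGTCA and 5.2% held TGACTCA. The Clstn2 promoter (chr9:98033118-98033417, minus strand) and that of the first Lsamp start site (chr16:39984114-39984413, plus strand) are shown because these adhesion genes had opposite distributions; capitals mark TGACGTCA.
Clstn2: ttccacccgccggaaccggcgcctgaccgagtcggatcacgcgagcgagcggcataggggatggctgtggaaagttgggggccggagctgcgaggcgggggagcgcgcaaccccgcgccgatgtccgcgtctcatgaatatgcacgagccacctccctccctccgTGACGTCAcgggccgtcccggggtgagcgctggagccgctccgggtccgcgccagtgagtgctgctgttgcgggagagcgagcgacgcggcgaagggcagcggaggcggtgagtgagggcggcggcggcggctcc
Lsamp: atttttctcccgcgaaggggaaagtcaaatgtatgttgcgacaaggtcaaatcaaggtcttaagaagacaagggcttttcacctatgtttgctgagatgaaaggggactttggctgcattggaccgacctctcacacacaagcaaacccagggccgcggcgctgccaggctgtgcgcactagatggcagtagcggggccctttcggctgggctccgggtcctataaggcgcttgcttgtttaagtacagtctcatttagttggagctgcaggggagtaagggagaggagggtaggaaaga

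Fam163b (ENSMUSG00000009216) was high in Pdgfra cells, lower in Wnt2 cells and near or at the lowest value in the other lineages. Its log2 signal was 7.64 and 6.68 in Wnt2, 1.7 and 4.74 in Axin2:Pdgfra, 1.55 and 1.75 in Axin2, 13 and 12.35 in Pdgfra, and 1.79 and 2.67 in Negative cells. Axin2:Pdgfra library 1, both Axin2 libraries and both Negative libraries were listed at the lowest value, and 4.74 is the next value above the lowest in Axin2:Pdgfra library 2. Pdgfra cells averaged 12.67 ± 0.46 and Wnt2 cells 7.16 ± 0.68 (SD, n = 2 in each). The difference was -5.51 in Wnt2 minus Pdgfra and -9.45 in Axin2:Pdgfra minus Pdgfra cells.

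Fam163b and the pair of Penk and Lsamp thus shared the lowest value in Axin2 and Negative cells and a level of 7.86 or more in Pdgfra cells, and parted in the other lineages. With depth unknown, the lowest value does not show that a transcript was absent. By cutoffs likewise chosen after the values had been seen, 9 of the same 228 genes reached 6 or more in all 4 Wnt2 and Pdgfra libraries. With both Axin2:Pdgfra libraries under 6 there were 4, namely Fam163b, Kcnk2, a potassium channel, Chdh, a choline dehydrogenase, and Ugt1a5, a member of a locus whose genes share exons and whose count is therefore uncertain. The closest profiles to Fam163b were those of Zmat4 (RMS difference 1.49), Gm23291 (1.93) and B130006D01Rik (2.05). Zmat4, a zinc finger gene, was at 8.66 and 5.92 in Wnt2, 4.12 and 5.08 in Axin2:Pdgfra, 1.55 and 1.75 in Axin2, 10.64 and 9.24 in Pdgfra, and 1.79 and 2.67 in Negative cells.

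The profile closest to Clstn2 was that of Kcnh1 (RMS difference 1.2), a voltage-gated potassium channel, followed by Ppfia2 (1.23), a liprin of synapses, and Higd1b (1.31), which marks pericytes. Higd1b was at 7.77 and 6.22 in Wnt2, 3.36 and 5.08 in Axin2:Pdgfra, 12.21 and 12.94 in Axin2, 8.79 and 6.89 in Pdgfra, and 11.98 and 10.6 in Negative cells. Among the 7 genes, the closest pair after Penk and Lsamp was Gria1 and Gria3 (RMS difference 2.01), and the farthest pair was Penk and Clstn2 (6.84).

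**Figure D2:**
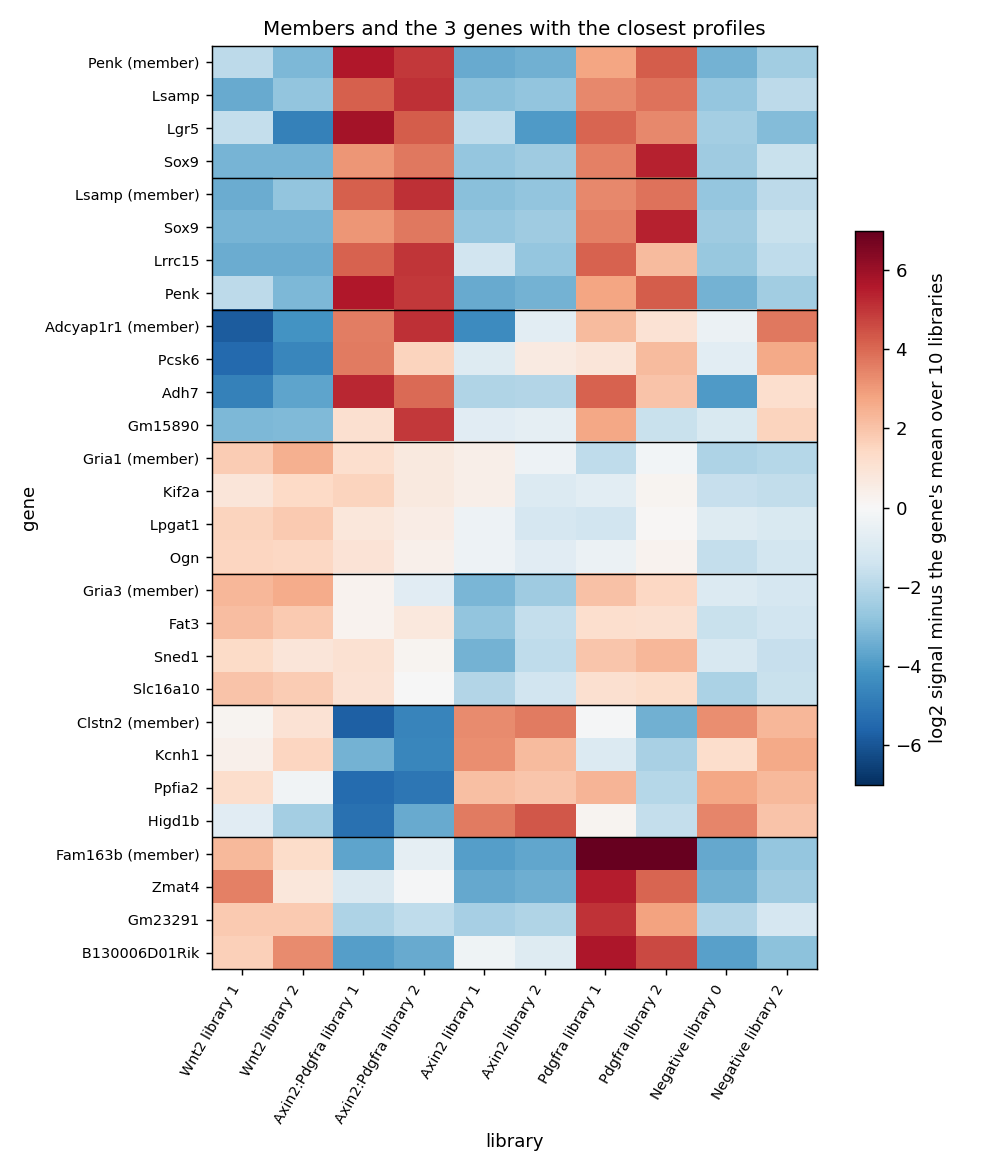
Heat map of log2 signal minus each gene's mean over the 10 libraries (columns), for the 7 members and, under each, the 3 genes with the smallest root-mean-square difference from it (rows). Red is above and blue below the gene's mean; the Clstn2 block is the reverse of the Penk and Lsamp blocks in the Axin2:Pdgfra, Axin2 and Negative libraries.

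The remaining pathway genes were tested as rows of a single fit to all genes (limma, two-sided, Benjamini-Hochberg (BH) adjustment over 14177 genes, threshold 0.05). The lists held 136 genes besides the 7, of which 74 were listed and 71 were kept by the filter. These lists were chosen with earlier results of these data known, and the part of that choice in the shares below was not tested. In Axin2:Pdgfra minus Axin2, 2 of the 71 rose and 3 fell (7.04%), against 2.30% of all genes tested (0.924% higher and 1.38% lower), and the median log2 difference was -0.04 against 0.02 over all genes. In Pdgfra minus Negative, 4 rose and 1 fell (7.04%) against 2.91% of all genes (2.03% higher and 0.875% lower), with medians of 0.33 and 0.03. In Wnt2 cells against the mean of the other 4 groups, 2 rose and 5 fell (9.86%) against 2.16% of all genes (0.719% higher and 1.44% lower), with medians of -0.44 and 0.13.

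In the other comparisons the pathway genes gave no call. In Axin2:Pdgfra minus Pdgfra, 0 of 71 passed limma's threshold (13 at unadjusted p under 0.05) against 0.0423% of all genes. In Axin2 minus Negative, 0 of 71 passed (13 at unadjusted p under 0.05) against 0.600% of all genes (0.240% higher and 0.360% lower). The counts moved with single libraries: with 1 left out, pathway calls numbered 1 to 7 in Axin2:Pdgfra minus Axin2 (fewest without either Axin2 library, most without Negative library 2), 0 to 7 in Pdgfra minus Negative (fewest without Pdgfra library 2, most without Negative library 2), 5 in Axin2 minus Negative without Negative library 0, and 1 to 11 in the Wnt2 comparison (fewest without Wnt2 library 2, most without Negative library 2). With limma's eBayes without trend and robust, 14 of the 17 calls on named genes below ended (adjusted p between 0.0661 and 0.261). The 3 that held were Adcy8 and Rapgef4 in Axin2:Pdgfra minus Axin2 and Cacng7 in the Wnt2 comparison.

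Among opioid genes, those for the receptors Oprm1, Oprd1 and Oprk1 and for the other precursors are not analysed here, so that Penk is given without them. The list kept 5 genes, of which Mme, neprilysin, a membrane peptidase that cleaves enkephalins among other peptides, rose and the other 4 did not pass. Mme was at 15.38 and 15.41 in Wnt2, 14.61 and 13.91 in Axin2:Pdgfra, 13 and 13.03 in Axin2, 13.44 and 14.22 in Pdgfra, and 12.2 and 11.99 in Negative cells. It was higher in Wnt2 cells than in the mean of the other 4 groups by 2.1 ± 0.26 (log2 ± SE; limma, BH-adjusted p = 0.000875; mean 15.4 in Wnt2 against 13.3 over the others), past the threshold in all 10 fits with a library left out. It was higher in Pdgfra than in Negative cells by 1.73 ± 0.33 (adjusted p = 0.0113), which ended without Pdgfra library 2 (adjusted p = 0.134).

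Of 4 neuropeptide processing genes, Cpe, carboxypeptidase E, which trims precursors such as proenkephalin in secretory granules, fell in Wnt2 cells. Cpe was at 6.72 and 4.75 in Wnt2, 10.09 and 11.28 in Axin2:Pdgfra, 10.74 and 11.36 in Axin2, 10.3 and 9.78 in Pdgfra, and 9.69 and 7.18 in Negative cells. The difference of Wnt2 from the mean of the other groups was -4.32 ± 0.82 (limma, BH-adjusted p = 0.0132), and it lost its call without Wnt2 library 2 (-3.34, adjusted p = 0.277). Both Wnt2 libraries lay below the other 8. Pcsk1 and Pcsk2, the convertases of neurons and endocrine cells, are not analysed here.

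Vipr2, the receptor VPAC2, which binds both VIP and PACAP, was the called gene of the PACAP and VIP list, in which 4 genes were kept; the ligands Adcyap1 and Vip and the receptor Vipr1 are not analysed here. Vipr2 was at 14.17 and 13.61 in Wnt2, 13.34 and 12.4 in Axin2:Pdgfra, 10.64 and 10.39 in Axin2, 12.5 and 13.61 in Pdgfra, and 10.2 and 11.88 in Negative cells. It rose in Axin2:Pdgfra against Axin2 cells by 2.35 ± 0.56 (limma, BH-adjusted p = 0.0443) and in Wnt2 cells against the other groups by 2.02 ± 0.44 (adjusted p = 0.028). Vipr2 was high in Wnt2 cells, where Adcyap1r1 was at 1.75 and 3.35. The first call held in 2 of 10 fits with a library left out (adjusted p up to 0.249) and the second in 4 of 10 (up to 0.531).

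Of 24 genes of cyclic AMP signalling, 3 fell in Axin2:Pdgfra against Axin2 cells (limma; 1.38% of all genes). In Pdgfra against Negative cells 1 rose and 1 fell (2.03% and 0.875% of all genes), and in the Wnt2 comparison 1 fell (1.44%). Adcy8, an adenylyl cyclase that calcium and calmodulin stimulate, was at 9.06 and 8.15 in Wnt2, 7.45 and 7.89 in Axin2:Pdgfra, 14.27 and 14.8 in Axin2, 9.34 and 8.32 in Pdgfra, and 14.45 and 12.21 in Negative cells. It fell by 6.87 ± 0.75 (limma, BH-adjusted p = 0.000283) in Axin2:Pdgfra against Axin2 cells, a call kept in all 10 fits with a library left out. It fell by 4.5 ± 0.75 (adjusted p = 0.00507) in Pdgfra against Negative cells, which ended without Pdgfra library 2 (adjusted p = 0.0737), while the Wnt2 comparison gave -2.48 ± 0.59 (adjusted p = 0.0432), kept in 3 of 10 fits. The lineages high in Adcy8 were those high in Clstn2 and in the summed signal of pericyte genes. The log2 summed signal of 10 pericyte genes was 15.02 and 14.51 in Axin2:Pdgfra and 18.21 and 18.55 in Axin2 cells. That of 9 smooth muscle genes was 15.88 and 15.29 in Axin2:Pdgfra, 17.72 and 17.73 in Axin2, and 16.18 and 15.29 in Negative cells. The part of pericytes and smooth muscle in the falls of Adcy8, Rapgef4 and Prkacb was not tested.

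Rapgef4, or EPAC2, an exchange factor that cyclic AMP activates directly, was at 3.62 and 4.74 in Axin2:Pdgfra and 10.54 and 9.96 in Axin2 cells. It fell by 6.07 ± 1.08 (limma, BH-adjusted p = 0.00908), lost without Axin2 library 1 (adjusted p = 0.097) or 2 (0.0953), and 4.74 is the next value above the lowest in Axin2:Pdgfra library 2. Prkacb, a catalytic subunit of protein kinase A, was at 11.13 and 11.05 in Axin2:Pdgfra and 13.47 and 13.21 in Axin2 cells. It fell by 2.25 ± 0.41 (adjusted p = 0.0094), lost without library 2 of Axin2:Pdgfra (0.0526) or without either Axin2 library (0.0982 and 0.0944). Pde4b, a phosphodiesterase that degrades cyclic AMP, was at 14.5 and 13.57 in Pdgfra and 11.8 and 12.18 in Negative cells. It rose by 2.04 ± 0.43 (adjusted p = 0.0195), lost without Pdgfra library 1 (0.224), Pdgfra library 2 (0.055) or Negative library 0 (0.056).

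Ionotropic glutamate receptors besides Gria1 and Gria3 gave 0 calls in 7 genes in each of the 5 comparisons (limma; 0 to 2 at unadjusted p under 0.05), and Gria2 and Gria4 are not analysed here. Of 11 auxiliary and scaffold proteins of AMPA receptors, Cacng7, a transmembrane regulatory protein of these receptors, fell in Wnt2 cells. Cacng7 was at 2.64 and 1.84 in Wnt2, 6.68 and 7.01 in Axin2:Pdgfra, 9.44 and 10.91 in Axin2, 6.89 and 4.37 in Pdgfra, and 10 and 8.97 in Negative cells. The difference of Wnt2 from the mean of the other groups was -5.79 ± 1.21 (limma, BH-adjusted p = 0.0226), lost without Wnt2 library 1 (0.183), Wnt2 library 2 (0.27) or Axin2 library 2 (0.0615). Cacng7 was thus low in the cells with the highest Gria1 and Gria3.

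Of 5 glutamate and neutral amino acid transporters, 2 rose in Pdgfra against Negative cells (limma; 2.03% of all genes) and 1 in Axin2:Pdgfra against Axin2 cells (0.924%). Slc1a3, the transporter GLAST that clears glutamate, was at 11.66 and 12.6 in Pdgfra and 9.04 and 7.25 in Negative cells, higher by 3.98 ± 0.66 (limma, BH-adjusted p = 0.00495), a call that ended without Pdgfra library 2 (adjusted p = 0.0814). Slc1a5, a transporter of neutral amino acids such as glutamine, was at 12.92 and 12.65 in Pdgfra and 10.59 and 9.98 in Negative cells, higher by 2.5 ± 0.51 (adjusted p = 0.0176), lost without Pdgfra library 1 (0.155), Pdgfra library 2 (0.0968) or Negative library 2 (0.068). Slc1a5 was at 11.86 and 12.69 in Axin2:Pdgfra and 10.21 and 10.07 in Axin2 cells, higher by 2.13 ± 0.51 (adjusted p = 0.0443), a call kept in 2 of 10 fits. The metabotropic glutamate receptors are not analysed here.

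Among the relatives of the adhesion genes, calls were made in the Wnt2 comparison and in no other (limma; 0 to 3 genes of a list at unadjusted p under 0.05 elsewhere). Clstn1, calsyntenin-1, was at 11.23 and 10.95 in Wnt2 and between 12.16 and 13.36 in the other 8 libraries, a difference of -1.59 ± 0.3 (limma, BH-adjusted p = 0.0124). Its call ended without Wnt2 library 1 (0.133) or 2 (0.247), and Clstn3 is not analysed here. Iglon5 was at 1.75 and 1 in Wnt2, 12.1 and 9.74 in Axin2:Pdgfra, 5.91 and 9.49 in Axin2, 7.89 and 9.57 in Pdgfra, and 1.79 and 5.55 in Negative cells, a difference of -6.38 ± 1.47 (limma, BH-adjusted p = 0.0368). That call held in 4 of 10 fits with a library left out and ended with a common lowest value (-5.2, adjusted p = 0.0652). Negr1 was at 11.47 and 11.31 in Wnt2 and between 6.42 and 9.63 in the other 8 libraries, a difference of 3.01 ± 0.79 that did not pass (adjusted p = 0.0655), and Opcml did not pass either (-3.82 ± 1.73, adjusted p = 0.33). Ntm did not pass the filter on low values, and Fam163a is not analysed here.

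**Figure D3:**
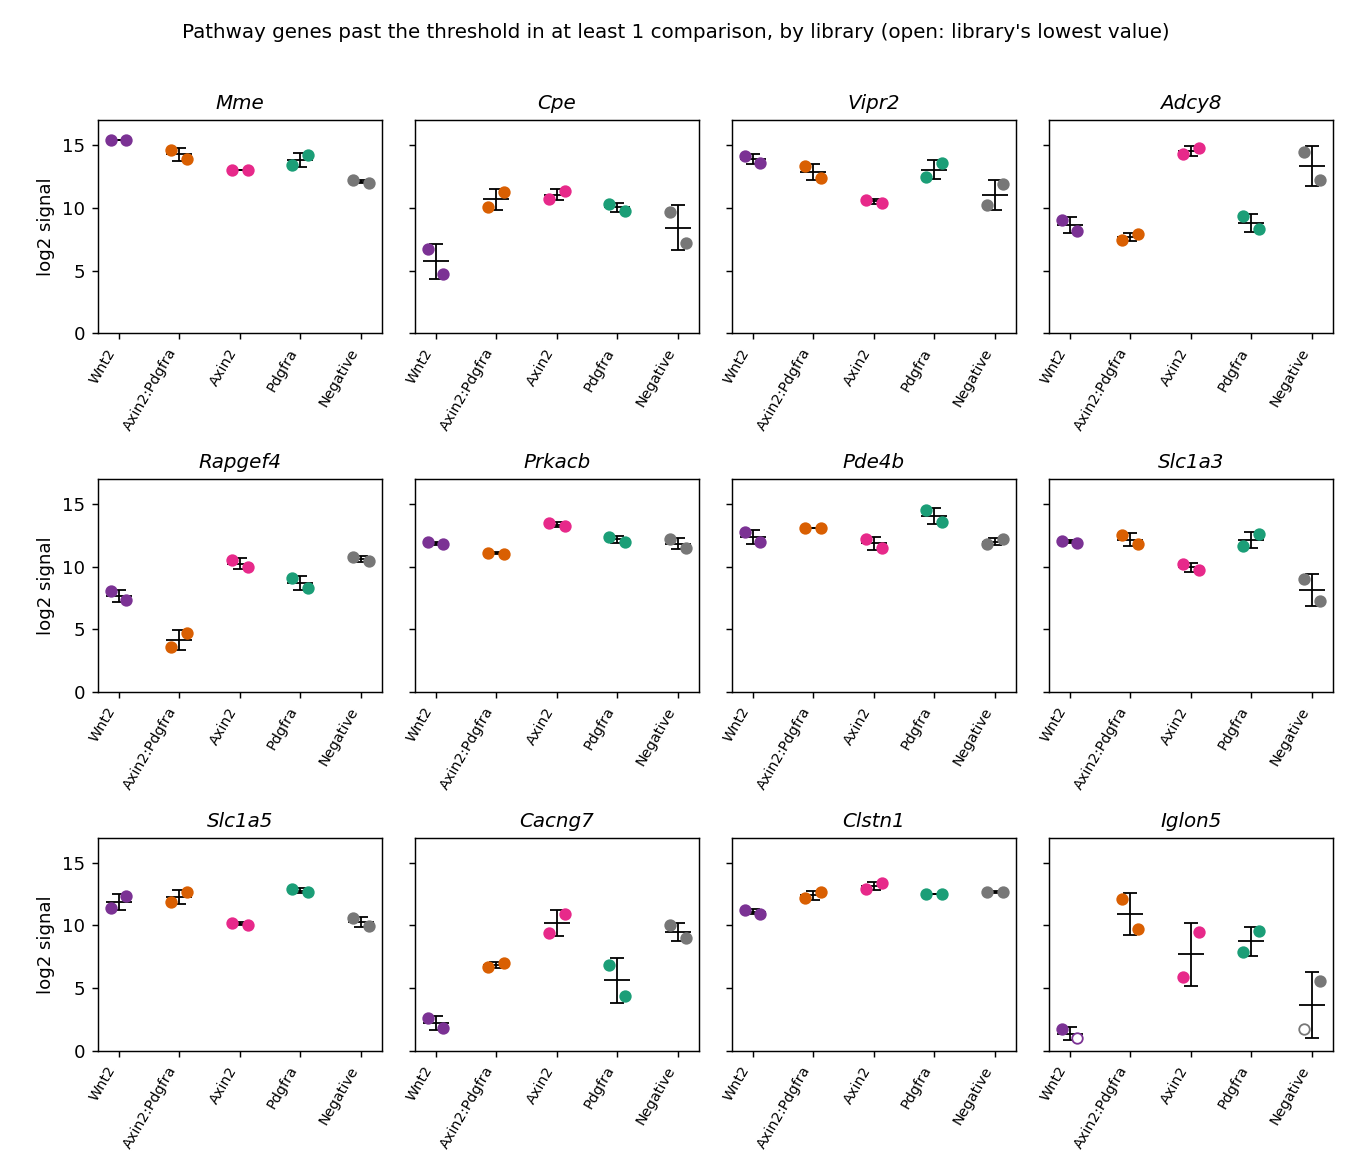
Log2 signal of the 12 pathway genes that passed the threshold in at least 1 comparison (one panel each) in Wnt2, Axin2:Pdgfra, Axin2, Pdgfra and Negative cells. Points are libraries, open where listed at the lowest value, and bars are the mean ± SD of 2 libraries; Adcy8 lies above 12 in the Axin2 and Negative libraries and at 9.34 or less in the other 6.

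Few neuronal transcripts were listed. Of 12 neuronal genes 3 were listed (Syt1, Stmn2 and Rbfox3), and the log2 of their summed signal was 9.26 and 8.05 in Wnt2, 6.57 and 5.67 in Axin2:Pdgfra, 9.86 and 7.32 in Axin2, 10.71 and 9.74 in Pdgfra, and 10.74 and 12.09 in Negative cells. The sum was lowest in the Axin2:Pdgfra libraries, where Penk, Lsamp and Adcyap1r1 were highest, and was 10.71 and 9.74 in Pdgfra cells, where Penk, Lsamp, Gria3 and Fam163b were also high. The part of neuronal RNA in the levels of the 7 genes was not tested. Rbfox3, a nuclear protein of mature neurons, had the lowest value of the library in Wnt2 library 2, both Axin2:Pdgfra libraries and Axin2 library 2.

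Sox10, a Schwann cell gene, was high in the lineages that were high in Clstn2. This transcription factor of glia was at 1 and 1.75 in Wnt2, 1.7 and 2.06 in Axin2:Pdgfra, 8.48 and 8.79 in Axin2, 1.55 and 1 in Pdgfra, and 9.38 and 8.45 in Negative cells. Wnt2 library 1 and all 4 Axin2:Pdgfra and Pdgfra libraries had the lowest value. Of 8 Schwann cell genes 5 were listed, with a log2 summed signal of 14.79 to 15.08 in Wnt2, 15.38 to 15.61 in Axin2:Pdgfra, 14.76 to 14.86 in Axin2, 15.04 to 15.43 in Pdgfra and 15.88 to 16.18 in Negative cells, most of it from Pmp22, which many cell types express. The sum thus did not follow Clstn2, being lowest in Axin2 cells, where Clstn2 was highest.

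The summed signal of pericyte genes was also highest in the lineages highest in Clstn2. The log2 summed signal of 10 pericyte genes was 14.04 and 13.54 in Wnt2, 15.02 and 14.51 in Axin2:Pdgfra, 18.21 and 18.55 in Axin2, 14.8 and 14.88 in Pdgfra, and 17.59 and 16.51 in Negative cells, with 0 of the 10 at the lowest value in any library. In Axin2:Pdgfra minus Axin2, 8 of the 10 fell (limma), against 1.38% of all genes. Kcnj8 and Abcc9 did not follow the sum. Kcnj8 was at 12.5 and 12.29 in Axin2:Pdgfra, 11.65 and 10.84 in Axin2, and 9.07 and 7.25 in Negative cells. Abcc9 was at 13.2 and 11.93 in Axin2:Pdgfra, 12.45 and 12.06 in Axin2, and 11.51 and 9.46 in Negative cells. The Axin2 and Negative libraries were thus the highest in Clstn2, in Sox10 and in the pericyte sum. The part of pericytes, smooth muscle and Schwann cells in the level of Clstn2 was not tested. Wnt2 cells had the lowest pericyte sum and a Clstn2 level of 9.54 and 10.34, above that of Axin2:Pdgfra cells.

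Penk and Lsamp were high in the libraries with the highest sums of adventitial fibroblast genes and of immediate early genes. Immediate early genes respond within minutes to stimuli and to the dissociation of tissue. The log2 summed signal of 10 adventitial genes was 14.42 and 13.84 in Wnt2, 17.24 and 17.01 in Axin2:Pdgfra, 15.38 and 15.2 in Axin2, 16.18 and 16.69 in Pdgfra, and 14.54 and 15.11 in Negative cells. That of 22 immediate early genes was 18.18 and 18.43 in Wnt2, 18.9 and 19.05 in Axin2:Pdgfra, 17.97 and 17.94 in Axin2, 19.08 and 18.97 in Pdgfra, and 17.74 and 17.95 in Negative cells. The 4 libraries with Penk above 7.8 were thus the 4 highest in the sum of each list. Single genes did not all follow these sums. Dpp4 was at 10.19 and 4.74 in Axin2:Pdgfra and at 10.72 and 10.34 in Wnt2 cells. Ly6a was at 13.9 and 13.12 in Axin2:Pdgfra and at 13.58 and 14.08 in Negative cells. Ier3 was highest in Negative cells (13.94 and 13.97). Of the 10 adventitial genes 3 rose in Axin2:Pdgfra against Axin2 cells (limma, 0.924% of all genes) and 4 in Pdgfra against Negative cells (2.03%). Of the 22 immediate early genes 6 rose in Axin2:Pdgfra against Axin2 cells (limma; 0.924% of all genes) and 7 in Pdgfra against Negative cells (2.03% of all genes), with Fos, Egr1, Zfp36, Nr4a1 and Nr4a3 in both; the part of tissue handling in the level of Penk was not tested.

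Gria1 and Gria3 were highest in the lineage with the highest summed signal of alveolar fibroblast genes. The log2 summed signal of 10 such genes was 19.86 and 19.43 in Wnt2, 18.66 and 18.69 in Axin2:Pdgfra, 17.44 and 17.22 in Axin2, 18.54 and 18.65 in Pdgfra, and 17.46 and 17.42 in Negative cells. In the Wnt2 comparison, 3 of the 10 rose and 0 fell (limma; 0.719% and 1.44% of all genes), while 7 of 10 adventitial genes fell. Macf1 was the main part of the sum in Wnt2 cells, and was at 17.72 in each Axin2:Pdgfra and Pdgfra library. Not every gene of the list was highest in Wnt2 cells. Tcf21 was at 13.12 and 13.03 in Wnt2 and 13.61 and 13.33 in Axin2:Pdgfra cells. Plin2 was at 11.86 and 11.86 in Wnt2 and 12.25 and 13.2 in Axin2:Pdgfra cells. The part of alveolar fibroblasts in the levels of Gria1 and Gria3 was not tested.

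**Figure D4:**
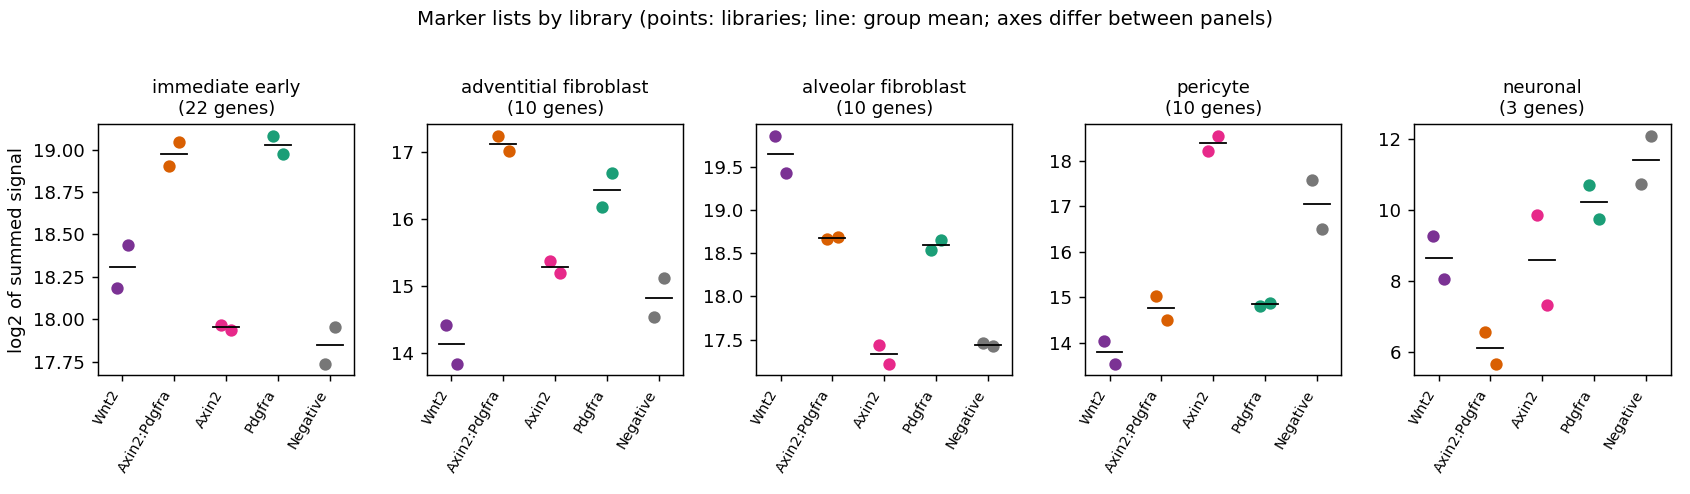
Log2 of the summed signal of 5 marker lists (one panel each, with its own vertical axis) in Wnt2, Axin2:Pdgfra, Axin2, Pdgfra and Negative cells. Points are libraries and lines are group means; the immediate early and adventitial sums are highest in the Axin2:Pdgfra and Pdgfra libraries, and the pericyte sums in the Axin2 and Negative libraries.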

How the data were processed

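The labels give 10 libraries of sorted adult mouse lung mesenchyme in 5 lineages. Per the submitters' processing notes STAR, limma and build mm9 were used; versions, annotation, counter and normalization were not given in the sources used here. Per library, the authors deposited 1 log2 value per Ensembl gene, a scale inferred from the values (1 to 19.25, medians 9.1 to 9.11, with nearly the same distribution in every library, as after quantile normalization). Values so scaled carry ranks more than amounts. Without counts, the depth is unknown and no counting interval is given.

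Symbols were matched to 14720 of 14854 identifiers. Members and lists were chosen with earlier results of these data known. Genes at 6 or more in at least 2 libraries (14177) entered limma 3.58.1 (R 4.3.3): 1 mean per lineage, no covariate, 5 residual degrees of freedom, eBayes with trend and robust, two-sided, BH adjustment, threshold 0.05; the fit was tested on simulated data. Named were the members, the 3 closest profiles to each, up to 4 called genes per pathway list and comparison, and set partners. Alternatives were the filter, variance moderation, a replicate block, a common lowest value, a fit without Wnt2 and each library left out.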

Additional observations from a re-analysis of the deposited data

Results flagged for a closer look

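Differences with the Axin2 label that ran in opposite directions with and without the Pdgfra label, in every library, were found for 5 genes among the 7, their closest profiles and the named pathway genes. Higd1b and B130006D01Rik entered this search only as close profiles of Clstn2 and Fam163b. How many of all genes show such a reversal was not counted. The differences below use a common lowest value of 2.67, and the difference between the paired effects was not tested. For Adcyap1r1 the difference was 2.72 in Axin2:Pdgfra minus Pdgfra and -4.25 in Axin2 minus Negative, which are 6.98 apart. For Clstn2 it was -3.47 and 0.68 in the same comparisons, -4.14 apart, the second resting on libraries at 12.67 and 12.61. For Prkacb it was -1.08 and 1.5, -2.58 apart. For Higd1b, a pericyte gene, it was -3.62 and 1.29, -4.91 apart. For B130006D01Rik it was -8.04 and 2.3, -10.34 apart, and the Pdgfra label gave -2.3 in Axin2:Pdgfra minus Axin2 and 8.04 in Pdgfra minus Negative; both Axin2:Pdgfra and both Negative libraries were at the lowest value.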

How the results depend on the processing

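With eBayes without trend and robust, the counts of genes past the threshold were 95 in Axin2:Pdgfra minus Axin2 (326 as reported), 0 in Axin2:Pdgfra minus Pdgfra (6), 71 in Pdgfra minus Negative (412), 0 in Axin2 minus Negative (85) and 66 in Wnt2 minus the rest (306). Pathway genes then numbered 2, 0, 0, 0 and 1 (5, 0, 5, 0 and 7). The stricter filter gave 14 in Axin2:Pdgfra minus Pdgfra. Without Wnt2 the counts were 50 in Axin2 minus Negative and 3 pathway genes in Axin2:Pdgfra minus Axin2. With replicate number as a block they were 41 in Axin2:Pdgfra minus Pdgfra and, in Axin2 minus Negative, 396 with 2 pathway genes. Negative library 0 is the sole library with its number, so the block takes it out of the Negative mean. Correlations of same-numbered deviations, which left out the Negative pair, were -0.06 to 0.03, so libraries of the other lineages shared little beyond a number. The block ended the call of Pde4b (adjusted p = 0.0927). The cause of these shifts was not tested. With 1 library left out, counts ranged from 35 to 470, 0 to 57, 82 to 640, 0 to 594 and 63 to 439 in the order above, and pathway counts from 1 to 7, 0 to 0, 0 to 7, 0 to 5 and 1 to 11. The lowest gene counts came without Axin2 library 2, Pdgfra library 1, Pdgfra library 2, Axin2 library 2 and Wnt2 library 1, each in that order, and the highest without Negative library 0 or 2. Without Pdgfra library 2, 6 of 11 calls in Axin2:Pdgfra minus Pdgfra were higher, against 0 of 6 as reported. None of the 17 calls on named pathway genes reversed under the alternatives run. Unknown depth limits all values near the lowest.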
